A study of Homo sapiens with 2 samples.

Results

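MiR-21, miR-155, miR-221 and miR-222 are microRNAs (miRNAs) widely described as oncogenic and as abundant in triple-negative and basal-like breast cancer. Each is made from a hairpin with a 5p and a 3p arm, so that the 4 hairpins can give 8 mature products. All entries bearing these hairpin names, either arm, were taken from the small RNA tables, and 7 of the 425 listed miRNAs met this rule: hsa-miR-21-5p, hsa-miR-21-3p, hsa-miR-155-5p, hsa-miR-221-5p, hsa-miR-221-3p, hsa-miR-222-5p and hsa-miR-222-3p. The eighth, miR-155-3p, was listed in neither library. The rule refers to names and uses no measured value, although it was set with earlier results of these data known.

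Small RNA had been sequenced from MDA-MB-231-IV2-1 cells, a highly metastatic subline, selected in mice, of the human triple-negative breast cancer line MDA-MB-231. The control cells received a scrambled siRNA (N.C), and the knockdown cells a pool of siRNAs against the long non-coding RNA LOC550643. The siRNA concentration was 10 nmol/L and RNA was taken after 48 h, and both groups share the cell line, the transfection and the time point. The comparison asks which miRNAs changed in amount when LOC550643 was depleted. Each condition is 1 library, so that no difference has a replicate check, and no p-value is given. LOC550643 is not a miRNA and its level in these libraries was not analysed here. The sample titles name the IV2 subline, whereas the cell line field names MDA-MB-231.

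A primary miRNA transcript is cut to a hairpin by Drosha and to a short duplex by Dicer, and 1 strand of the duplex is usually kept in Argonaute while its partner arm is discarded. The kept strand finds its targets mainly through its seed, the bases 2 to 8 from its 5′ end. In tumour biology, miR-21-5p is known for repressing PDCD4, miR-221-3p and miR-222-3p for repressing the cell cycle inhibitor CDKN1B (p27), the receptor KIT and the oestrogen receptor gene ESR1, and miR-155-5p, made in activated immune cells, for repressing SOCS1.

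The mature sequences are shown because they define which members can share targets. They come from RefSeq (GRCh38.p14), where 350 of the 425 listed names had a match, and the seed is in capitals. Those of miR-21-3p and miR-221-5p are not shown.
hsa-miR-21-5p: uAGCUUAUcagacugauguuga
hsa-miR-155-5p: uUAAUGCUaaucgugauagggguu
hsa-miR-155-3p: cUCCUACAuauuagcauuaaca
hsa-miR-221-3p: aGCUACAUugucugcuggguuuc
hsa-miR-222-3p: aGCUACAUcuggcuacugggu
hsa-miR-222-5p: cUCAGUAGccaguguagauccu
The 3p arms of miR-221 and miR-222 had the same seed and were identical over their first 8 bases, whereas no other pair of the sequences shown shared a seed. Among all mature miRNAs of the table, miR-590-5p had the seed of miR-21-5p, and it was listed in neither library.

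On GRCh38, the mature miR-21-5p lies at chr17:59841273-59841294 on the plus strand. Its hairpin gene MIR21, at chr17:59841266-59841337, overlaps in GENCODE 29 a transcript of VMP1 that has 1 exon, and is exonic in it. The products of miR-155 lie at chr21:25573983-25574006 (5p) and chr21:25574022-25574043 (3p) on the plus strand. MIR155, at chr21:25573980-25574044, is in exon 4 of the 4 exons of the lincRNA gene MIR155HG. MIR221 (chrX:45746157-45746266) and MIR222 (chrX:45747015-45747124) are both on the minus strand, 748 bases apart, in the intron of the lincRNA gene MIR222HG, which has 2 exons. The mature miR-221-3p is at chrX:45746180-45746202, miR-222-3p at chrX:45747036-45747056 and miR-222-5p at chrX:45747073-45747094. None of the 4 hairpins was annotated in a UTR. The miR-222 hairpin of 110 bases is printed with its arms in capitals, the 5p arm first, because the abundance of those arms differed by over 2 orders of magnitude in both libraries.
MIR222: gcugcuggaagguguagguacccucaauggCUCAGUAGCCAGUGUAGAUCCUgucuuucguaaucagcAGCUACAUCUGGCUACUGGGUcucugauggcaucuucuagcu

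Levels are RPM as deposited, the miRNA reads of a library scaled to a total of 1000000. The spacing of the low values showed that 1 read was worth 5.29 RPM in control cells and 2.03 RPM in knockdown cells. This corresponds to about 189034 and 491617 miRNA reads, a 2.60-fold difference in depth. Intervals are 95% Clopper-Pearson intervals of the estimated reads. They cover counting error only, since reads without molecular identifiers are not independent molecules. A value at or under 3 reads was taken as being at the floor, which was 15.9 RPM in the control and 6.10 RPM in knockdown cells. RPM of different miRNAs may also differ through ligation and amplification, which was not tested.

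MiR-21-5p was among the most abundant miRNAs of the cells. Its level was 176111 RPM in control cells (33291 reads, 174396 to 177836 RPM) and 175871 RPM in knockdown cells (86461 reads, 174807 to 176938 RPM). In each library it held 17.6% of the RPM. Its rank was 3 of 376 listed miRNAs in control cells and 2 of 375 in knockdown cells. In the control library it was next to miR-100-5p (176487 RPM), with overlapping intervals and a miR-21-5p to miR-100-5p ratio of 0.998 (0.983 to 1.01). In the knockdown library miR-100-5p was at 123748 RPM, and the same ratio was 1.42 (1.41 to 1.44). On the library total, the change of rank came with a lower level of miR-100-5p, while the level of miR-21-5p differed by less than its counting error. Another scaling, given below, moved miR-21-5p beyond its counting error, so only the ratio is free of the scaling. The most abundant miRNA of both libraries was miR-148a-3p, at 195101 and 243955 RPM, and the ratio of miR-21-5p to it was 0.903 and 0.721.

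The 3p arms of miR-222 and miR-221 followed at a distance. MiR-222-3p was at 6232 RPM in control cells (1178 reads, 5882 to 6597 RPM) and at 5096 RPM in knockdown cells (2505 reads, 4898 to 5298 RPM), and ranked 16 in both. MiR-221-3p was at 4772 RPM (902 reads, 4466 to 5093 RPM) and 3889 RPM (1912 reads, 3717 to 4067 RPM), with ranks 17 and 19. Both were lower in knockdown cells, and for neither did the intervals of the libraries overlap. In each library miR-222-3p was the higher of the pair, with intervals that did not overlap. MiR-21-5p exceeded miR-222-3p by 28.3-fold in control cells (26.7 to 29.98) and by 34.5-fold in knockdown cells (33.2 to 35.9).

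The remaining arms ranged from moderately abundant to a few reads. MiR-221-5p was at 1603 RPM in control cells (303 reads, 1428 to 1794 RPM) and 2081 RPM in knockdown cells (1023 reads, 1955 to 2212 RPM), with ranks 37 and 31. It was the only member whose level was higher in knockdown cells with intervals that did not overlap. MiR-21-3p was at 206 RPM (39 reads, 147 to 282 RPM) and 238 RPM (117 reads, 197 to 285 RPM), with ranks 98 and 84 and overlapping intervals.

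MiR-155-5p was close to the detection limit, although this miRNA is described as high in triple-negative breast cancer. It had 3 reads in control cells, or 15.9 RPM (3.27 to 46.4), and 5 reads in knockdown cells, or 10.2 RPM (3.30 to 23.7), with ranks 210 and 238. MiR-21-5p exceeded it by 11097-fold (3797 to 53813) in control cells and by 17293-fold (7410 to 53258) in knockdown cells. For miR-155-3p no read was listed in either library. It was thus at the 3-read floor of 15.9 and 6.10 RPM, which is not an upper bound of its level. In these libraries miR-21-5p and the 3p arms of miR-221 and miR-222 were thus abundant, and miR-155 was not. With no library of another subtype or of normal tissue, whether any of them is raised in this line was not tested. In bulk RNA, fewer cells that make a miRNA and less of it in each cell cannot be told apart. MiR-222-5p was as scarce, with 2 reads or 10.6 RPM (1.28 to 38.2) and 8 reads or 16.3 RPM (7.03 to 32.1), and ranks 227 and 208.

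The order of the members was miR-21-5p, miR-222-3p, miR-221-3p, miR-221-5p and miR-21-3p in both libraries. MiR-155-5p and miR-222-5p came last and traded places between the libraries, but their intervals overlapped in each, so that their order was not resolved at this depth. Together the 7 members held 18.9% of the control RPM (18.7 to 19.1) and 18.7% of the knockdown RPM (18.6 to 18.8). Without miR-21-5p the shares were 1.28% and 1.13%.

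**Figure D1:**
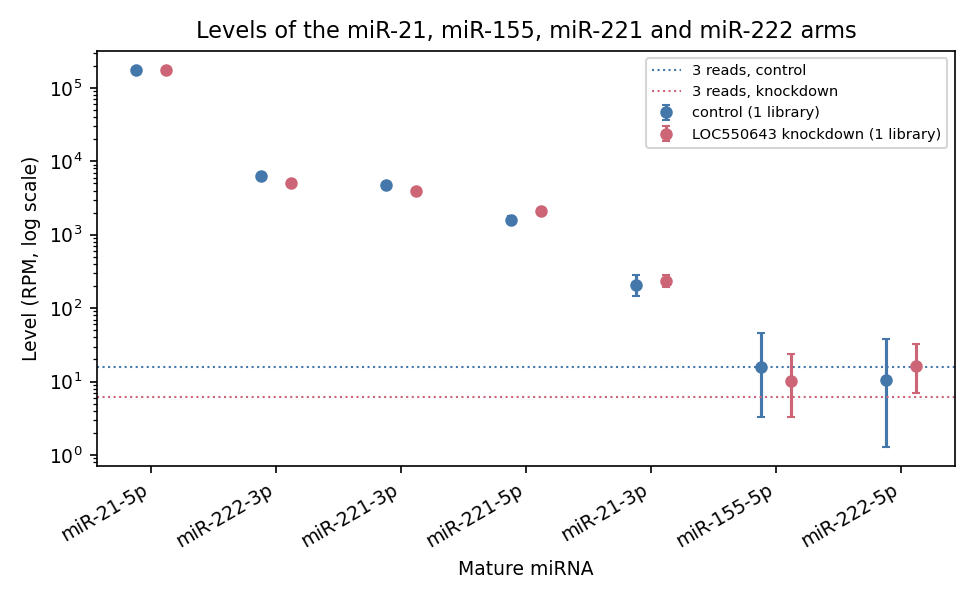
Level of each member in RPM on a log axis, in the control and the LOC550643 knockdown library (1 library each), with 95% counting intervals as error bars (smaller than the points at high levels) and dotted lines at the 3-read floor of each library. MiR-21-5p is at 176111 and 175871 RPM, and the intervals of the libraries are separate for miR-221-5p, miR-221-3p and miR-222-3p.

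**Figure D2:**
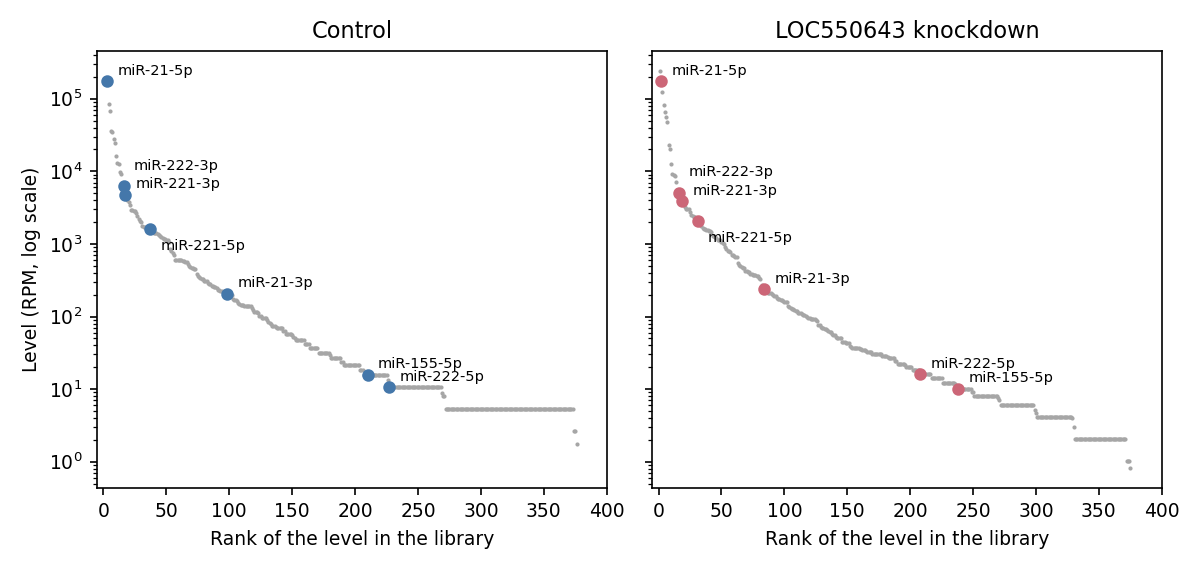
Level (RPM, log axis) against rank for every listed miRNA of the control (left) and knockdown library (right), with the 7 members as coloured points. The members span the curves from rank 3 to 227 in control cells and from rank 2 to 238 in knockdown cells.

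Changes between the libraries were computed as log2 fold changes of knockdown over control, on values of log2(RPM + 1), after bringing both libraries to the same total. MiR-21-5p had a log2 fold change of -0.0018 (-0.02 to 0.02), an interval that includes 0. MiR-221-5p was higher in knockdown cells, with a log2 fold change of 0.38 (0.19 to 0.57), or 1.30-fold (1.14 to 1.48). MiR-221-3p and miR-222-3p were lower, with log2 fold changes of -0.29 (-0.41 to -0.18) and -0.29 (-0.39 to -0.19). In linear terms, their levels were 0.815 (0.753 to 0.883) and 0.818 (0.763 to 0.877) of the control. For miR-21-3p the log2 fold change was 0.21, and its interval of -0.33 to 0.77 includes 0.

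For the scarce arms a difference was not detectable at this depth. The ratio of knockdown to control was 0.641 for miR-155-5p, with an interval of 0.125 to 4.13, and 1.54 for miR-222-5p, with an interval of 0.307 to 14.9. The control value of each was at or under the 3-read floor, so that these ratios are given with their counting intervals alone and no direction is read from them.

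The background puts these differences in context. Over all 425 miRNAs the median log2 fold change was -0.20 (quartiles -1.05 and 0.53), and over the 51 with a mean of at least 1000 RPM it was -0.09 (-0.30 and 0.09). No member was more than 2-fold higher, against 17.9% of all listed miRNAs, and none was more than 2-fold lower, against 27.3%. These shares came mostly from miRNAs with at most 3 reads in a library. With more than 3 reads in both libraries, 7 of 201 miRNAs were more than 2-fold higher and 22 were more than 2-fold lower. The members are too few to be set apart from that background. Of the 5 members that exceeded 3 reads in each library, miR-221-5p was the 1 whose interval lay above no change, and 10.9% of all 201 such miRNAs did so. MiR-221-3p and miR-222-3p had intervals below no change, as did 24.9% of the 201. Among the 51 with a mean of at least 1000 RPM, a class that includes these arms and miR-221-5p, the shares were 23.5% above and 39.2% below no change. A counting interval that leaves out no change was therefore common in these libraries. Ordered from the largest rise down, miR-221-5p was 9th, miR-21-5p 18th, miR-222-3p 37th and miR-221-3p 38th of the 51 abundant miRNAs.

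The calls on the 3p arms depended on how the libraries were scaled. Scaling by the median of ratios, which sets the typical miRNA to no change, raised all log2 ratios by 0.20. With it, miR-221-3p was at -0.10 (-0.21 to 0.02) and miR-222-3p at -0.09 (-0.19 to 0.01), so that neither interval excluded 0. MiR-221-5p was at 0.58 (0.39 to 0.77), above 0 under both scalings. MiR-21-5p was at 0.20 (0.18 to 0.22), with an interval above 0 that was absent under the library total.

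**Figure D3:**
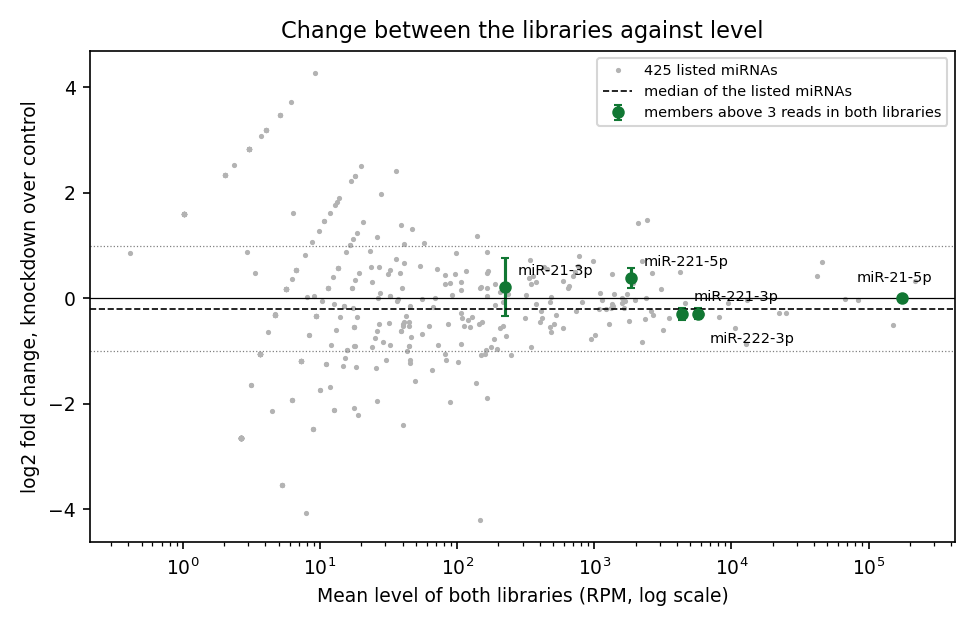
Log2 fold change of knockdown over control against the mean level of both libraries (RPM, log axis) for the 425 listed miRNAs (grey), with the 5 members above 3 reads in both libraries in green and their 95% counting intervals. The dashed line is the median of all miRNAs, -0.20, and dotted lines mark 2-fold. All 5 members lie between the dotted lines.

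The arms of a hairpin come from 1 precursor, and their ratio within a library does not depend on the scaling between libraries. In the miR-221 hairpin the 5p arm made up 25.1% of the reads of both arms in control cells (22.7 to 27.7) and 34.9% in knockdown cells (33.1 to 36.6). The ratio of 3p to 5p went from 2.98 to 1.87, and the log2 odds of the 5p arm differed by 0.67 (0.45 to 0.89). The arms moved in opposite directions with the library total as scale. On the same scale their sum went from 6375 to 5970 RPM, a log2 fold change of -0.09 (-0.19 to 0.0034). The median of ratios raises all log2 ratios by 0.20, so that both the directions and the change of the sum depend on scaling. The 3p arm, which carries the seed shared with miR-222-3p, was the more abundant arm in both libraries.

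Of the 87 hairpins with both arms listed, 29 had more than 3 reads for each arm in both libraries. The odds interval left out no change in 7 of the 29, or 24.1%, and miR-221 was 1 of them. The shift was larger in size than that of miR-221 in 11 hairpins, some of them on few reads. Arms that differed in opposite directions, each with an interval excluding no change, were found in miR-221, miR-151a and miR-99b, the latter pair being named after their values were seen. With the median of ratios there was no such hairpin, 0 of 29.

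In the miR-21 hairpin nearly all reads came from the 5p arm, with 99.883% in control cells (99.840 to 99.917) and 99.865% in knockdown cells (99.838 to 99.888). The ratio of 5p to 3p was 854 and 739. The log2 odds differed by -0.21 (-0.77 to 0.33), so that no shift was detectable. Among the 29 hairpins, none had a larger ratio of major to minor arm in control cells, and 1, miR-151a, had a larger ratio in knockdown cells. The read filter of these 29 leaves out hairpins with a very scarce arm, so this order does not cover the most one-sided hairpins. For example, miR-143, with 2 and 8 reads of its 5p arm, had ratios of 3316 and 3467.

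In the miR-222 hairpin the 3p arm prevailed by a ratio of 589 in control cells and 313 in knockdown cells. The 5p arm made up 0.169% (0.0205 to 0.611) and 0.318% (0.138 to 0.626). With 2 reads of miR-222-5p in control cells, the log2 odds differed by 0.91 with an interval of -1.42 to 4.19. MiR-221 and miR-222 thus had very different shares of the 5p arm in the same cells, and miR-221-5p exceeded miR-222-5p by 152-fold (41.6 to 1257) and 128-fold (64.7 to 297).

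**Figure D4:**
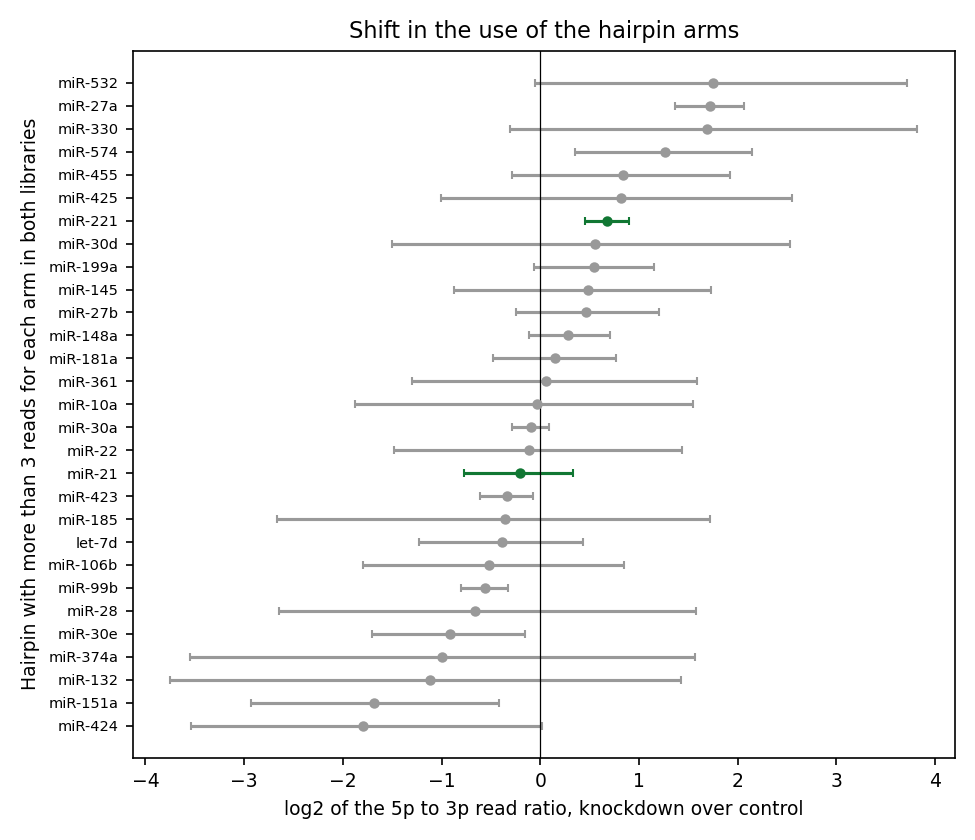
Shift in arm use of the 29 hairpins with more than 3 reads for each arm in both libraries, as the log2 odds of the 5p arm in knockdown over control cells (x axis), with 95% counting intervals as bars and the members in green. MiR-221 lies at 0.67 with an interval above 0, and the interval of miR-21, at -0.21, includes 0.

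The ratio of the 3p arms of the neighbouring hairpins MIR221 and MIR222 differed between the libraries by less than its counting error. The ratio of miR-222-3p to miR-221-3p was 1.31 in control cells (1.20 to 1.43) and 1.31 in knockdown cells (1.23 to 1.39), and the knockdown ratio was 1.00 times the control ratio (0.902 to 1.12). This comparison does not depend on scaling. All 4 arms of both hairpins together made up 1.26% of the control RPM (1.21 to 1.31) and 1.11% of the knockdown RPM (1.08 to 1.14). Unlike the ratio, the difference between these shares depends on scaling. The median of ratios raised all log2 ratios by 0.20, and with it neither 3p arm had an interval that excluded no change.

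The miRNAs most like each member were those with the smallest sum, over both libraries, of the absolute log2 differences in RPM. With 2 libraries this measures closeness of level and says little about shared behaviour. For miR-21-5p they were miR-100-5p (0.51), miR-148a-3p (0.62) and let-7i-5p (2.14). For miR-222-3p they were let-7g-5p (0.22), miR-378a-3p (0.59) and miR-221-3p (0.77), and for miR-221-3p they were miR-378a-3p (0.21), miR-148b-3p (0.60) and miR-222-3p (0.77). For miR-221-5p they were let-7b-5p (0.12), miR-30a-3p (0.30) and miR-183-5p (0.40), and for miR-21-3p miR-1246 (0.04), miR-181a-3p (0.15) and miR-224-5p (0.23).

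Other miRNAs described as oncogenic in breast cancer were compared as a list of 19, of which 15 were listed in either library. Their summed level, 12078 and 9506 RPM, was below that of miR-21-5p alone. Of the 12 that exceeded 3 reads in each library, 1 had an interval above no change, against 10.9% of all 201 such miRNAs, and 4 had an interval below it, against 24.9%. These counts are too small to set the list apart from the background. Their median log2 fold change was -0.47, against -0.19 for the 201. The most abundant, miR-92a-3p of the miR-17-92 cluster, was at 3814 and 2516 RPM (-0.60). MiR-103a-3p, which is known to target Dicer, was at 2832 and 1598 RPM (-0.82). MiR-182-5p was at 2904 and 3267 RPM, with a log2 fold change of 0.17 (0.03 to 0.31). The background shares beyond 2-fold came mostly from miRNAs with at most 3 reads in a library, as above, and are a loose comparison. No miRNA of the list was more than 2-fold higher, against 17.9% of all listed miRNAs, and 5 of the 15 were more than 2-fold lower, against 27.3%. Of these, miR-17-5p was at 204 and 96.6 RPM and miR-20a-5p at 206 and 67.1 RPM, both of the miR-17-92 cluster. MiR-19b-3p had 6 and 3 reads, miR-18a-5p 2 and 2 reads and miR-9-3p 1 and 0 reads.

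The libraries were checked against marker miRNAs of other tissues and states. Of 6 epithelial markers, which are low in mesenchymal-like lines, 2 were listed, with a summed level of 10.6 and 8.14 RPM. All 5 miRNAs typical of mesenchymal-like lines were listed, at 181398 and 127757 RPM, most of it miR-100-5p. Of 8 blood markers 1 was listed, miR-486-5p, at 74.1 and 89.5 RPM, and the defining markers miR-451a, miR-223-3p, miR-142-3p and miR-150-5p were at 0. The liver marker was not listed. Muscle markers summed to 52.9 and 42.7 RPM (2 of 4 listed), endothelial markers to 10.6 and 16.3 RPM (1 of 2) and nerve markers to 169 and 120 RPM (1 of 2). Of the muscle markers, miR-206 was at 52.9 and 36.6 RPM. The nerve marker listed was miR-9-5p, which is also in the oncogenic list above. The part of these tissue markers in the members' levels was not tested.

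A seed match to LOC550643 was looked for with the 6 mature sequences shown, which cover 5 of the 7 listed members and miR-155-3p. MiR-21-3p and miR-221-5p were not searched. The search covered the isoform sequences V1, V2 and V3 of the study, on the transcript strand alone. The motifs were the reverse complements of bases 2 to 7 and 2 to 8 of each mature sequence: TAAGCT and ATAAGCT for miR-21-5p, GCATTA and AGCATTA for miR-155-5p, GTAGGA and TGTAGGA for miR-155-3p, TGTAGC and ATGTAGC for miR-221-3p and miR-222-3p, and TACTGA and CTACTGA for miR-222-5p. Each shorter motif lies within the longer one. No isoform held any of these motifs, and nothing is known from this search about miR-21-3p and miR-221-5p. In the first 718 bases of 6536 lincRNA transcripts, the length of V1, the 6-base motifs were found in 8.90% (GCATTA) to 14.9% (TACTGA) and the 7-base motifs in 2.74% (ATGTAGC) to 5.49% (CTACTGA). Of the 350 listed miRNAs with a sequence, 58 (16.6%) had the 6-base match in V1 and 21 (6%) the 7-base match. The absence of a match says only that these letters are not in these sequences.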

How the data were processed

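Small RNA of both samples was prepared by the authors with a small RNA library kit and sequenced. Per the paper's methods the data were analysed with an in-house tool, and the authors deposited RPM values of mature miRNAs in 1 table for each sample. The submitters' processing notes name FastQC, cutadapt and hg38. The aligner, the miRNA release and whether low values were filtered out are not given in the sources used here. The deposited RPM sum to 999996 and 999845, so that they are shares of miRNA reads, and a large change in an abundant miRNA moves the RPM of all others.

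Members were found by hairpin name, and a missing entry was set to 0. The members and lists were chosen with earlier results of these data known. Named by rule were the members, their seed mates, their rank neighbours, the 3 miRNAs nearest in level, the top 5 miRNAs of control cells by level, and of the oncogenic list the 3 most abundant and those beyond 2-fold. The 2 older names without an arm (miR-210 and miR-1) were matched after the tables were seen.

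The step worth 1 read was fitted to values up to 20 reads and within 0.1 read of a whole one, which held for 92.9% of 253 such values in the control and 91.5% of 224 in the knockdown library. Because the remainder were fractions of a read, no count test was run. Values were rescaled to the same total with a pseudocount of 1 RPM, which understates changes of low miRNAs. Intervals of ratios came from the binomial share of the knockdown reads, and those of arm shifts from the exact conditional odds ratio. The alternatives covered scaling, pseudocount, fold threshold and filters on low values. Python 3.11.15, numpy 2.4.6, scipy 1.17.1 and matplotlib 3.10.9 were used, with RefSeq sequences (GRCh38.p14) and GENCODE 29.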

Additional observations from a re-analysis of the deposited data

How the results depend on the processing

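No paired analysis was possible because control and knockdown are 1 library each, and no library could be left out. Of 30 alternative fold changes of the members, 22 stayed within the counting interval and 0 reversed a change whose interval excluded 0. Most of the 22 used another pseudocount or the deposited values, which can hardly move arms at these levels, so the count says little about stability. All the values that left the interval came from a change of scaling. With the median of ratios the log2 fold changes were 0.20 for miR-21-5p, 0.58 for miR-221-5p, -0.10 for miR-221-3p and -0.091 for miR-222-3p. With the 75th percentile they were 0.19 for miR-21-5p, -0.11 for miR-221-3p and -0.10 for miR-222-3p. With a total that leaves out the 5 most abundant miRNAs, miR-21-5p was at -0.033. The 28 alternative ranks and the 4 alternative arm shifts stayed within their counting ranges. The former only left out scarce miRNAs and the latter only changed the pseudocount, so neither could move the abundant arms by much. With the abundant miRNAs other than miR-21-5p taken out of the denominator, the members held 39.7% of the control and 38.8% of the knockdown RPM. Beyond 2-fold, 76 miRNAs were higher and 116 lower, and these counts became 3 and 7 at a mean of at least 100 RPM, 7 and 22 with more than 3 reads in both libraries, and 19 and 25 with a pseudocount of 10 RPM. At 1.5-fold, 95 miRNAs were higher and 150 lower, the latter with 1 member, miR-155-5p, whose 3 and 5 reads do not resolve a direction. Interval counts under the median of ratios were added after seeing the data: 46 miRNAs lay above no change in place of 22, with 2 members (miR-21-5p and miR-221-5p) in place of 1, and 35 miRNAs lay below in place of 50, with 0 members in place of 2. Depth limits miR-155-5p and miR-222-5p, both at or under 3 reads in the control library.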
